A study of Mus musculus with 8 samples.

Results

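The nuclear-encoded genes of oxidative phosphorylation were followed in whole mouse lung before and after birth, with and without the protease inhibitor Wfdc2. Rows were taken by symbol, namely those starting with Nduf, Uqcr, Atp5 or Cox4 to Cox8 together with Sdha, Sdhb, Sdhc and Sdhd, and rows with -ps in the symbol were left out. This gave 90 of the 25965 genes in the table. Of these, 88 entered the tests, and the testis forms Cox7b2 and Cox8c did not because their mean signal lay under the limit for testing. The 4 groups compared had 2 animals each. They were lungs of Wfdc2 +/+ mice at E18.5, an embryonic stage shortly before birth, and at P1.5, on the second day after it, and lungs of Wfdc2 GFP/GFP littermates at the same stages. On both alleles of Wfdc2 GFP/GFP mice, an IRES-EGFP cassette takes the place of part of exon 1 and of exon 2 of Wfdc2. The line was made in TT2 embryonic stem cells, and a CAG-Cre strain was used to remove the selection gene, so that every cell carries the altered gene and no cell type is singled out.

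Oxidative phosphorylation takes place in the mitochondrial inner membrane. Complexes I and II feed electrons from NADH and succinate into ubiquinone, complex III passes them to cytochrome c, and complex IV hands them to oxygen. Complexes I, III and IV pump protons as they do so, and complex V, the ATP synthase, lets the protons flow back and makes ATP. Most subunits are encoded in the nucleus, a few are encoded in mitochondrial DNA, and several nuclear subunits of complex IV exist in pairs, with a general form and a form used in particular tissues. Birth moves the lung from a fluid-filled organ at low oxygen to an air-filled one.

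Wfdc2 was read in accordance with the labels. Levels are given as transcript RPKM, the read count scaled by library size and by the annotated transcript in place of the genomic span. The level of Wfdc2 was 418 and 505 in the Wfdc2 +/+ lungs at E18.5 and 2711 and 941 at P1.5. In the Wfdc2 GFP/GFP lungs it was 0 and 0.061 at E18.5 and 0.928 and 0 at P1.5. The totals by which the libraries had been scaled, recovered from the deposited values, lay between 19457647 and 37209333 reads. They are not the counts of sequenced reads. The tissue showed its defining markers in every library, since the 8 alveolar type II markers summed to levels between 9646 and 86903. Replicates differed by more than counting noise in every group, with a chi-square per degree of freedom from 20.6 in Wfdc2 +/+ at E18.5 to 289 in Wfdc2 +/+ at P1.5, where 1 stands for counting noise alone. No reads were given to any of the 13 rows of mitochondrial DNA in any library, so the subunits encoded there were not compared.

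The genes together took a larger share of the reads after birth. Their summed level was 11207 and 11656 in Wfdc2 +/+ at E18.5 and 8846 and 14226 in Wfdc2 GFP/GFP at E18.5. At P1.5 it was 20952 and 13956 in Wfdc2 +/+, with 27539 and 24370 in Wfdc2 GFP/GFP. The stages overlapped in this sum, since the second Wfdc2 +/+ library at P1.5 lay below the second Wfdc2 GFP/GFP library at E18.5. As a share of all reads, the 90 genes held 0.795% to 1.20% at E18.5 and 1.13% to 2.04% at P1.5. In these whole-lung libraries, fewer cells of a type and less RNA per cell cannot be told apart.

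Single libraries stood out in most of the genes. The first Wfdc2 GFP/GFP library at E18.5 was the lowest of the 8 libraries in 63 of the 88 genes, and their median deviation from their own means there was -0.73 on the log2 scale, against 0.24 for all genes tested. The second Wfdc2 +/+ library at P1.5 was the lowest of its stage in 63 of the 88 genes. The first Wfdc2 GFP/GFP library at P1.5 was the highest of the 8 in 47. Markers of other cell types also differed between these libraries. The summed level of the 8 alveolar type II markers was 20862 and 24098 in Wfdc2 +/+, with 9646 and 26644 in Wfdc2 GFP/GFP at E18.5, and 70641 and 34525 in Wfdc2 +/+, with 86903 and 64144 in Wfdc2 GFP/GFP at P1.5. Its lowest and highest libraries were those of the summed respiratory genes. Of these 8 markers, 4 lay above 0 across birth and Sftpd rose. Of 8 tested leukocyte markers, S100a8, S100a9 and Cd79a rose, and their summed level went from 144 to 608 at E18.5 to 1666 to 3507 at P1.5. None of the 8 proliferation markers passed, with a median of -1.46 and summed levels of 232 to 442 and 82.7 to 240. Of 6 tested airway markers, 4 lay above 0 and 2 below, with a median of 0.39. Scgb1a1 of club cells rose and Ccdc39 of ciliated cells fell in limma. The summed level of the airway markers was 1089 to 4857 at E18.5 and 16065 to 33768 at P1.5. None passed among the markers of alveolar type I cells (6), endothelium (6) and erythroid cells (5). Of the type I markers, 2 lay above 0 across birth and 4 below, with a median of -0.08. Of the endothelial markers, 1 lay above 0 and 5 below, with a median of -0.32. All 5 erythroid markers lay above 0, with a median of 0.32. The sums below weigh abundant genes most, so they can rise where most markers of a list do not. The summed level of the type I markers was 917 to 2670 at E18.5 and 3225 to 5562 at P1.5, without overlap, and its lowest and highest libraries were again those of the summed respiratory genes. The endothelial sum was 372 to 601 and 592 to 1017, lowest and highest in these libraries too, and the erythroid sum was 460 to 1726 and 1525 to 3718. The part of these cell types in the change of the respiratory genes was not tested.

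**Figure D1:**
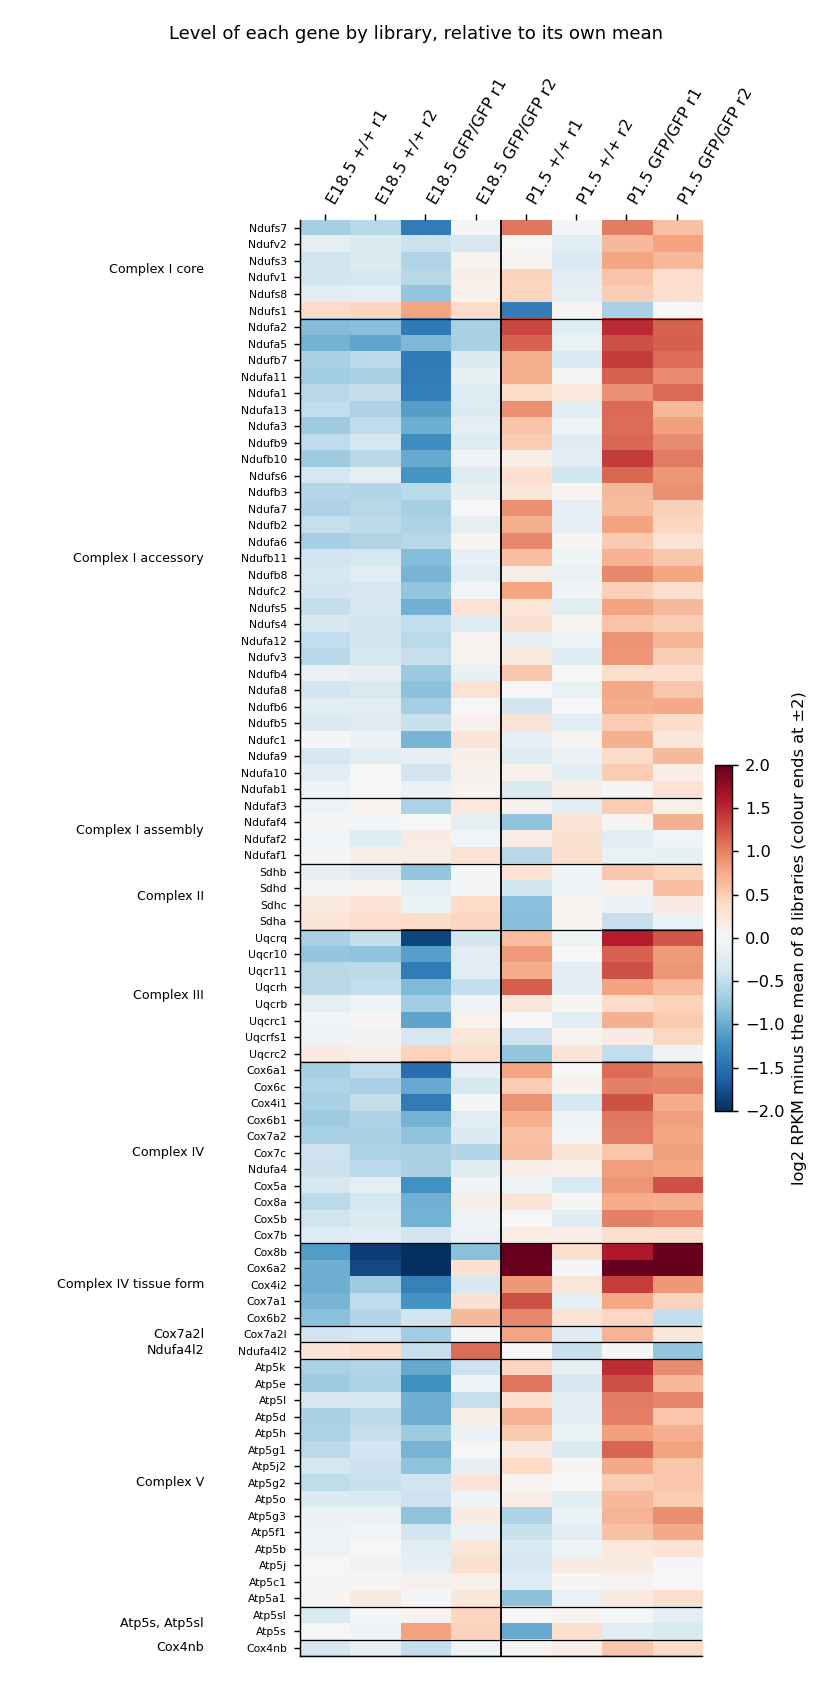
Heat map of 87 of the 88 tested genes (rows, ordered by complex and by change across birth) in the 8 libraries (columns). Colour gives log2 RPKM minus the gene's mean over the libraries, blue for lower and red for higher, with colours ending at ±2. The first Wfdc2 GFP/GFP library at E18.5 is the bluest column, and both Wfdc2 GFP/GFP libraries at P1.5 are the reddest.

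Across birth, with both genotypes averaged, 77 of the 88 genes had a log2 change above 0 and 11 below, against 37.3% of all genes above 0. By limma with Benjamini-Hochberg adjustment over all 15627 genes tested, 18 rose and 0 fell, against 2.58% of all genes that rose and 2.56% that fell. At an unadjusted p under 0.05, 59 were higher and 2 lower, against 12.3% and 26.7% of all genes. The median change was 0.73, against -0.32 for all genes tested. In 31 genes all 4 libraries of P1.5 lay above all 4 of E18.5, and in 2 genes they lay below, which compares with 7.28% and 13.7% of all genes. The count of 18 rested on single libraries. No share of all genes stands beside the counts that follow in this paragraph, so they describe only how stable the calls were. It went to 0 without either Wfdc2 +/+ library of E18.5, without the first Wfdc2 GFP/GFP library of E18.5 or without either Wfdc2 GFP/GFP library of P1.5, and to 6 without the first Wfdc2 +/+ library of P1.5. It went to 49 without the second Wfdc2 GFP/GFP library of E18.5, and to 52 without the second Wfdc2 +/+ library of P1.5, where Ndufs1, Sdha, Uqcrc2 and Atp5s also passed as lower. Of the 88 genes, 72 had a change above 0 whichever library was left out, among them all 18 that rose. Without a filter on low values 2 of the 18 passed, and without a trend in the prior 5.

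The scale of the libraries bears on these values, because the median of all genes shifted between the stages. Setting the library medians equal moved the all-gene median from -0.32 to 0.15, quantile normalization to -0.05 and a correction for transcript length to -0.01. The split of all genes called higher and lower was 403 and 400 as deposited, 1278 and 564 with equal medians, 710 and 568 after quantile normalization and 893 and 609 after the length correction. A change above 0 was kept under all 3 by 64 of the 88 genes, again with all 18 that rose, but sizes and calls moved. With equal medians 18 of the 18 passed, after quantile normalization 12, with a lowest change of 0.52 among the 18, and after the length correction 8, with a lowest change of 0.16, that of Ndufa4.

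**Figure D2:**
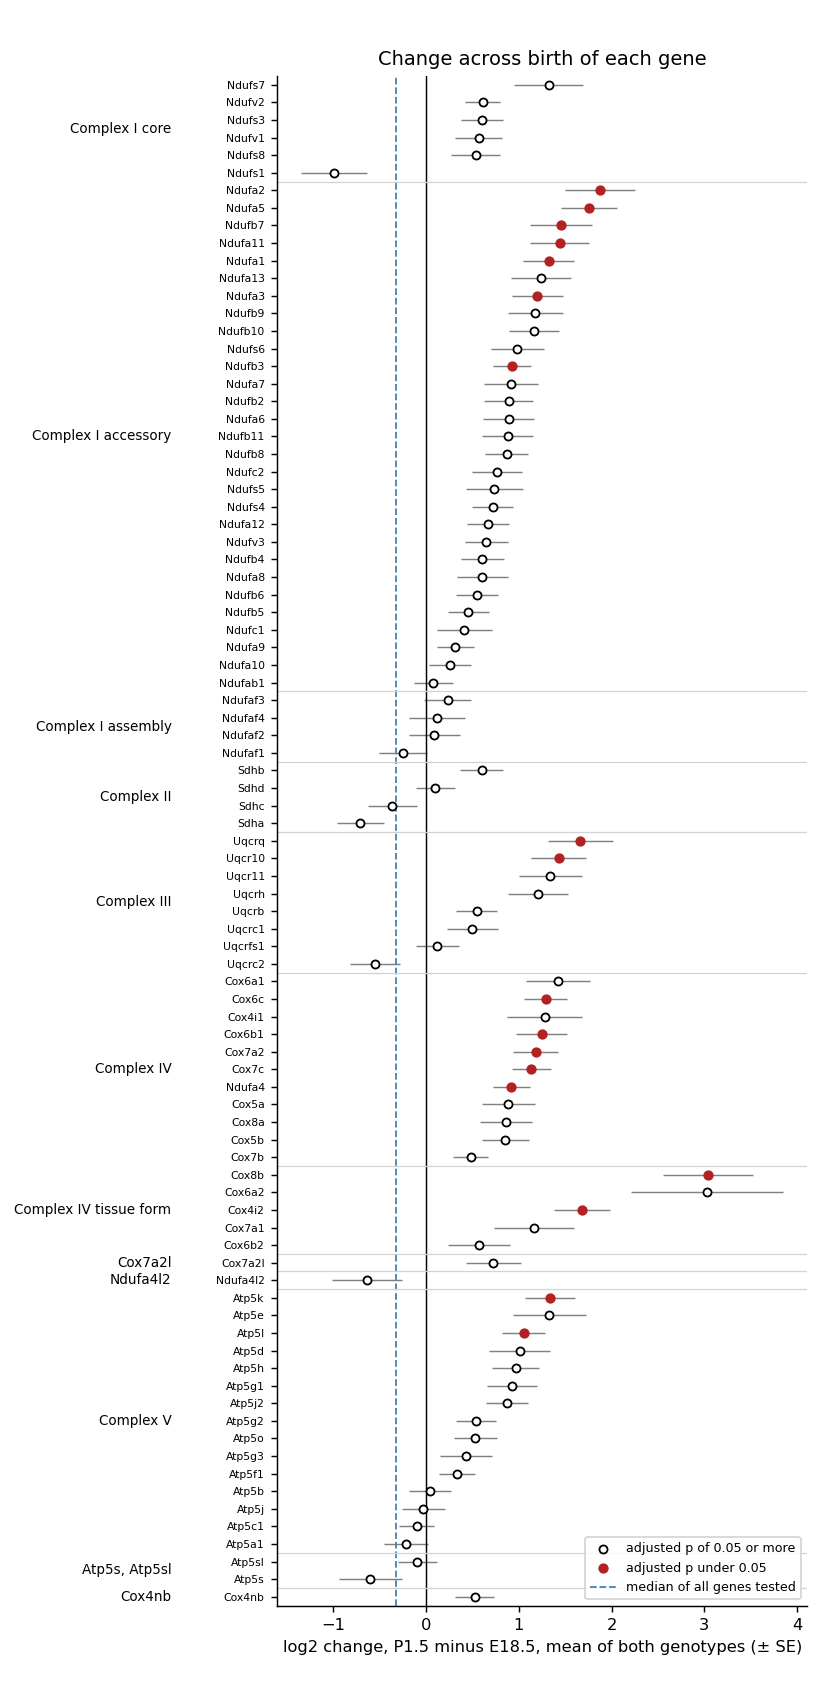
Log2 change across birth (horizontal axis, P1.5 minus E18.5, mean of both genotypes) of 87 of the 88 tested genes by complex, with bars of 1 standard error. Filled points passed an adjusted p under 0.05 in limma, and the dashed line is the median of all genes tested at -0.32. All filled points lie right of 0, and Ndufs1 at -0.99 lies furthest left.

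Complex I was the largest set. Its accessory subunits, which surround the catalytic core and stabilise it, were above 0 in 29 of 29 cases, with a median of 0.88 and a range from 0.08 to 1.88, and 7 rose, namely Ndufa1, Ndufa2, Ndufa3, Ndufa5, Ndufa11, Ndufb3 and Ndufb7. Ndufa2 had the highest mean level of the set, with 130, 134, 89.5 and 152 at E18.5 (the Wfdc2 +/+ pair first, then the Wfdc2 GFP/GFP pair, an order kept from here on) and 599, 200, 666 and 537 at P1.5. Every library of P1.5 lay above every library of E18.5, and its change was 1.88 ± 0.37 (log2 ± SE, limma adjusted p = 0.040). The row of Ndufa2 overlaps that of Tmco6 on the other strand, and reads of the pair cannot be told apart where counting ignores strand. Ndufa5 went from 30.6, 28.7, 31.7 and 37.7 to 133, 53.5, 144 and 134. The E18.5 libraries lay close together, and the change was 1.76 ± 0.30 (limma adjusted p = 0.031). Ndufa11 had 77.3, 80.2, 47.4 and 113 before and 207, 128, 285 and 241 after birth, with no overlap and a change of 1.44 ± 0.32 (limma adjusted p = 0.046). Ndufa1, an X-linked subunit needed for assembly of the membrane arm, changed by 1.32 ± 0.27, Ndufa3 by 1.20 ± 0.27 and Ndufb3 by 0.93 ± 0.20, each without overlap between stages. Ndufb7 changed by 1.46 ± 0.33, but its second Wfdc2 +/+ library at P1.5 (105) lay below an E18.5 library (106). Ndufs5 had the lowest mean level of the set, 26.7, and a change of 0.74 that did not pass.

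The 7 core subunits encoded in the nucleus carry the flavin and iron-sulphur clusters that conduct electrons from NADH to ubiquinone. None of them passed in either direction, 6 lay above 0, and the median was 0.57. Ndufs7, next to the ubiquinone site, had the largest value at 1.32 ± 0.37 (limma adjusted p = 0.060). Ndufs1, the largest core subunit and the one with the lowest level, went the other way. Its level was 31.0, 32.0, 41.0 and 30.4 at E18.5 and 9.05, 24.7, 15.2 and 23.7 at P1.5. All P1.5 libraries lay below all E18.5 libraries, and the change of -0.99 ± 0.35 did not pass (limma adjusted p = 0.088). The 4 assembly factors with Nduf names, which help to build the complex and then leave it, showed no call and a median of 0.11. Ndufaf2 had the highest mean level of them at 26.8 and a change of 0.09, and Ndufaf4 the lowest at 3.73 and a change of 0.12. The row of Ndufaf2 spans 106036 bases for a transcript of 678, and reads in introns, where counted, raise its level.

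Complex II, the succinate dehydrogenase that also works in the citric acid cycle, had 2 genes above 0 and 2 below, with a median of -0.13 and no call. The flavoprotein gene Sdha had levels of 65.7, 70.6, 71.4 and 73.9 at E18.5 and 30.4, 56.9, 40.2 and 50.1 at P1.5. The stages did not overlap, and the change was -0.70 ± 0.25 (limma adjusted p = 0.087). The iron-sulphur subunit Sdhb, with the highest level of the complex, had a change of 0.60 ± 0.23. The membrane anchors Sdhc and Sdhd had changes of -0.36 ± 0.27 and 0.10 ± 0.21, and their signs turned with the scaling.

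In complex III, 7 of 8 genes lay above 0 and 2 rose. Uqcrq, the small subunit also known as the ubiquinone-binding protein, had levels of 130, 146, 56.9 and 157 at E18.5 and 313, 189, 603 and 483 at P1.5. No library overlapped between the stages, and the change was 1.67 ± 0.35 (limma adjusted p = 0.043). Uqcr10 had 138, 135, 110 and 204 before and 424, 233, 534 and 423 after birth, without overlap, and changed by 1.43 ± 0.30 (limma adjusted p = 0.043). Uqcrh, the hinge protein that holds cytochrome c1, had the highest mean level of the complex at 644 and a change of 1.21 ± 0.32 that did not pass. The small subunits thus held both calls, whereas the core protein Uqcrc2 had a change of -0.55 ± 0.27, Uqcrc1 of 0.50 ± 0.28 and the Rieske iron-sulphur protein Uqcrfs1 of 0.12 ± 0.23. Uqcrfs1, the lowest of the complex at a mean of 63.3, fell on either side of 0 depending on the scaling.

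Of the 11 generally used subunits of complex IV, all lay above 0, the median was 1.14, and Cox6b1, Cox6c, Cox7a2, Cox7c and Ndufa4 rose. Cox4i1, the regulatory subunit that binds ATP, had the highest mean level of all 90 genes, 932. Its libraries had 506, 566, 301 and 767 at E18.5 and 1472, 618, 1904 and 1323 at P1.5, so the second Wfdc2 +/+ library of P1.5 overlapped the earlier stage, and the change of 1.28 ± 0.40 did not pass (limma adjusted p = 0.070). Cox6c had 336, 326, 255 and 409 before and 724, 542, 1030 and 1016 after birth. The stages did not overlap, and the change was 1.29 ± 0.23 (limma adjusted p = 0.034). Cox7c, which had 123, 105, 105 and 109 before and 249, 197, 239 and 293 after birth, had a change of 1.14 ± 0.21 (limma adjusted p = 0.035) and little spread between replicates. Ndufa4, once assigned to complex I and now to complex IV, had 298, 278, 256 and 339 before and 435, 430, 712 and 691 after birth, a change of 0.92 ± 0.20 (limma adjusted p = 0.044). Cox6b1 changed by 1.25 ± 0.27 and Cox7a2 by 1.18 ± 0.24, both without overlap. The lowest mean level was that of Cox7b, 125, with a change of 0.48 ± 0.19. Cox7a2l, which joins complexes III and IV into supercomplexes, had a change of 0.73 ± 0.30 that did not pass.

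The tissue forms of complex IV held the largest changes of all the genes, and of the 5 tested all lay above 0, with a median of 1.68, and Cox8b and Cox4i2 rose. Cox8b, the form of heart, skeletal muscle and brown fat, lies on chromosome 7 of the mm10 build at 140898943 to 140900446, minus strand. Its level was 2.74, 1.60, 1.27 and 3.32 at E18.5 and 26.7, 7.42, 18.0 and 23.5 at P1.5. The stages did not overlap, and it was 8.20-fold higher after birth (log2 3.04 ± 0.49, limma adjusted p = 0.026). Cox6a2, the form of heart and skeletal muscle, had 3.37, 1.89, 0.553 and 8.15 before and 25.9, 6.50, 27.2 and 27.8 after birth. The second Wfdc2 GFP/GFP library at E18.5 overlapped the second Wfdc2 +/+ library at P1.5, and the change of 3.03 ± 0.82 did not pass (limma adjusted p = 0.058). Cox7a1, another form of this kind, had a change of 1.16 ± 0.43 that did not pass.

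Markers of heart muscle were followed beside these forms. Of the 12 listed, 10 were tested, 7 of them were above 0, and Tnni3, the cardiac troponin I, rose by 1.99 ± 0.43 (limma adjusted p = 0.044). Their summed level was 296 and 154 in Wfdc2 +/+, with 198 and 789 in Wfdc2 GFP/GFP at E18.5, and 845 and 351 in Wfdc2 +/+, with 759 and 1003 in Wfdc2 GFP/GFP at P1.5. The stages overlapped in this sum, whereas those of Cox8b did not, and its highest and lowest libraries were not those of Cox8b. Within each group, the library with the higher sum also had the higher level of Cox8b and of Cox6a2. No marker was at 0 in any library. The atrial light chain Myl7 was the most abundant, between 52.0 and 213 at E18.5 and between 133 and 373 at P1.5, and Nppa ranged from 0.031 to 184 within E18.5. None of the 7 tested skeletal muscle markers passed, with a summed level of 15.3 to 53.2 at E18.5 and 19.5 to 39.3 at P1.5. The brown fat markers summed to no more than 6.59 in any library, and none of the 2 tested passed. The part of these cells in the change of Cox8b and Cox6a2 was not tested.

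Cox4i2, the form of complex IV known from lung and smooth muscle, was the most abundant tissue form. It had 43.6, 52.8, 33.7 and 69.1 before and 157, 102, 225 and 158 after birth. All libraries of P1.5 lay above those of E18.5, and the change was 1.68 ± 0.30 (limma adjusted p = 0.033). Ndufa4l2, a relative of Ndufa4 induced by low oxygen and known in pericytes, had 77.0, 81.9, 46.7 and 140 before and 64.1, 47.5, 62.9 and 37.3 after birth. The stages overlapped, and the change of -0.63 ± 0.37 did not pass. Its row overlaps that of Shmt2 on the other strand, which can touch its level and its ratio to Ndufa4 where counting ignores strand. None of the 6 pericyte markers passed, their median was -0.76, and their summed level was 139 to 214 at E18.5 and 155 to 288 at P1.5. The testis form Cox6b2 had a change of 0.57 ± 0.33 that did not pass. Cox7b2 and Cox8c, also testis forms, had at most 3 and 4 reads in any library.

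Each tissue form was set against its general partner, which takes out a change that both share. Cox8b held 1.42%, 0.729%, 0.881% and 1.09% of the pair with Cox8a at E18.5, and 7.47%, 2.55%, 3.73% and 4.90% at P1.5. Every P1.5 library lay above every E18.5 library, and the log2 ratio changed by 2.17 (exact two-sided permutation test, 4 libraries against 4, p = 0.029, the smallest this design allows, adjusted p = 0.086 over 6 pairs). Ndufa4l2 moved the other way against Ndufa4, from 20.5%, 22.7%, 15.4% and 29.2% to 12.8%, 9.94%, 8.11% and 5.12%, again without overlap and with a log2 ratio change of -1.55 (exact permutation p = 0.029, adjusted p = 0.086). The ratio of Cox6a2 to Cox6a1 changed by 1.61 and that of Cox4i2 to Cox4i1 by 0.40. Both overlapped between stages, each with exact permutation p = 0.057 and adjusted p = 0.086. Cox6b2 to Cox6b1 (-0.68, exact permutation p = 0.20) and Cox7a1 to Cox7a2 (-0.02, exact permutation p = 0.97) also overlapped between stages. No pair passed after adjustment. Both genotypes are pooled within a stage in these 6 comparisons.

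**Figure D3:**
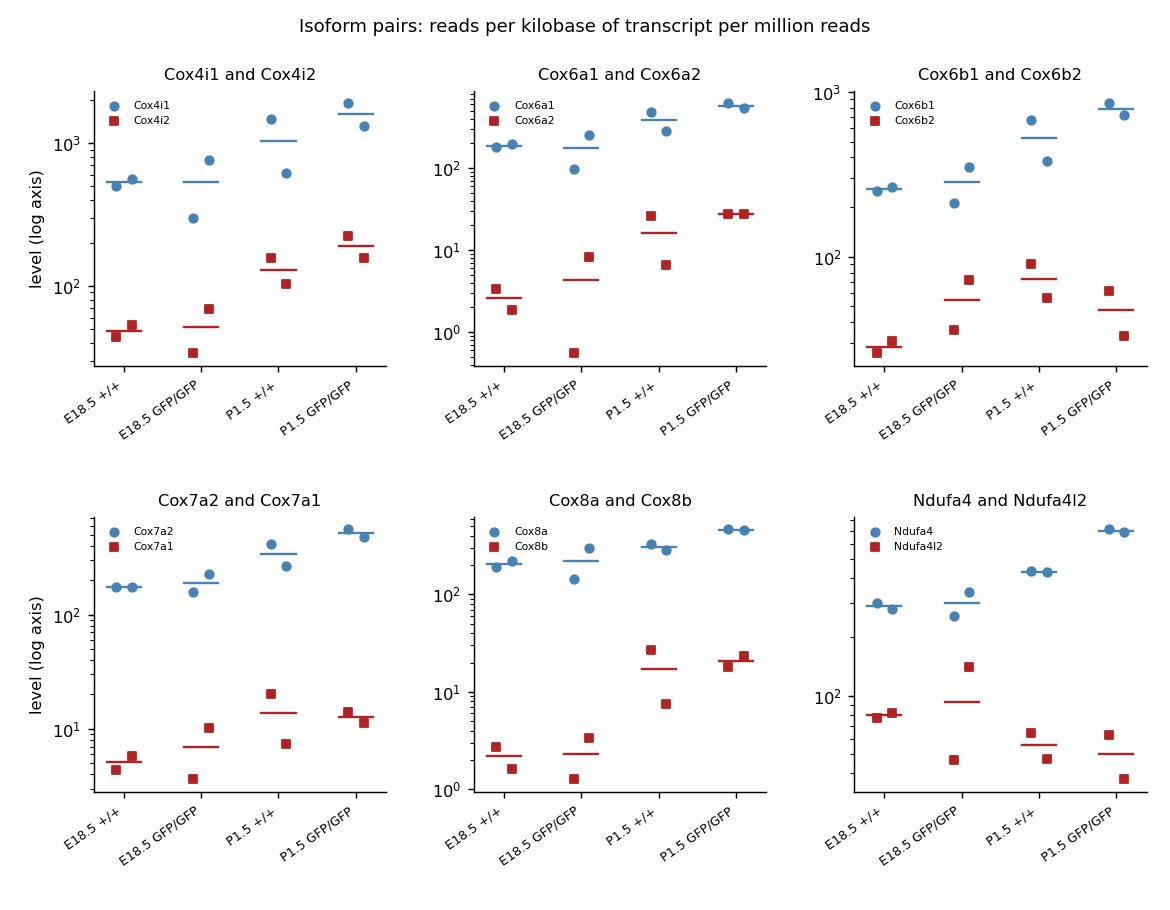
Levels of 6 isoform pairs (vertical axis, transcript RPKM, log axis) in the 4 groups. Circles are the general form, squares the tissue form, each point is 1 library and the line is the mean of 2. Cox8b and Cox6a2 lie far below their partners before birth and closer to them after it, and Ndufa4l2 and Ndufa4 draw apart.

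In complex V, 12 of 15 genes lay above 0, with a median of 0.54, and 2 rose, both of them small subunits of the membrane part. Atp5k, subunit e, had 156, 162, 119 and 181 at E18.5 and 329, 214, 677 and 470 at P1.5. The stages did not overlap, and the change was 1.34 ± 0.27 (limma adjusted p = 0.041). Atp5l, subunit g, had 394, 384, 251 and 359 before and 618, 422, 997 and 972 after birth, a change of 1.05 ± 0.23 (limma adjusted p = 0.046). Of the 36-base stretches of the Atp5l transcript, 69.4% also occur in a transcript of another gene, so that its reads may be split with pseudogenes. Atp5e, subunit epsilon, had the highest mean level at 565 and a change of 1.33 ± 0.39 that did not pass. The catalytic subunits had -0.21 ± 0.24 for Atp5a1 and 0.04 ± 0.23 for Atp5b. The proton channel is made of subunit c, which is encoded by 3 genes for the same mature protein. Their changes were 0.93 ± 0.27 for Atp5g1, 0.54 ± 0.22 for Atp5g2 and 0.43 ± 0.28 for Atp5g3, and none passed. Atp5s, a factor coupled to the synthase, had -0.60 ± 0.34. Atp5sl, now called Dmac2 and placed here by its former name, had -0.09 ± 0.21. Cox4nb met the rule by its name only, as it is the membrane complex subunit now called Emc8, and its change of 0.53 did not pass.

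The start regions of these genes were searched for the letters bound by known regulators of mitochondrial genes. Windows of 250 bases before the start were read from the RefSeq annotation of GRCm38.p6, which was found for 71 of the 90 genes and for 27025 genes in all, and both strands were searched. The letters CCGGAAG, which GABP binds, occurred in 13 of the 71 (18.3%) and in 7.83% of all genes. The letters of NRF1, taken as GCGC, any base and TGCGC, occurred in 14 (19.7%) and in 4.23% of all. AAGATGGCG of YY1 occurred in 1 (1.41%) and in 0.710% of all. Any of them stood before 24 of the 71 genes (33.8%) and 11.8% of all, and before 6 of the 14 called genes that had a window. The median GC content was 56.4% for the 71 genes and 52.4% for all. A match is a description of letters, not a binding site.

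The windows of 4 genes, chosen after their values were seen, are shown. No gene that was lower and lacked the letters is among them. Cox8b has none of the letters and the largest change. Cox6a1, with a change of 1.42 ± 0.34 that did not pass, and Ndufa11, which rose, hold NRF1 letters, and so does Sdha with its change of -0.70. The 4 windows are written 5′ to 3′ on the strand of the gene, begin 250 bases before the RefSeq start and have NRF1 matches on either strand in capitals. The windows of Cox8b and Ndufa11 run to the base before that start, whereas those of Cox6a1 and Sdha stop 23 and 40 bases earlier, where the row of the gene begins. The bases left out hold a GABP match in Cox6a1 and a further NRF1 match in Sdha. The printed windows are chr7:140900447-140900696 (minus), chr5:115348982-115349208 (minus), chr17:56717512-56717761 (plus) and chr13:74350281-74350490 (minus) of GRCm38.p6. Counted back from the last base printed, the matches begin at base 139 and 94 in Cox6a1, 60 in Ndufa11 and 58 and 15 in Sdha.
Cox8b: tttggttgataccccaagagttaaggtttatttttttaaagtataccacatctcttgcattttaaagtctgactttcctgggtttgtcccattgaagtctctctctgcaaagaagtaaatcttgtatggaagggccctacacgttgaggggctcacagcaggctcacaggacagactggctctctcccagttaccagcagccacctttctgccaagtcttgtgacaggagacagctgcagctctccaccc
Cox6a1: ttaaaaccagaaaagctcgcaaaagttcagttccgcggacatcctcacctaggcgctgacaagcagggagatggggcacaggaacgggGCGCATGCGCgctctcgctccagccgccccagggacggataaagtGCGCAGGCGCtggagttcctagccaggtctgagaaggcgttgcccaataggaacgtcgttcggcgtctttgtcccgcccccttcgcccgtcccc
Ndufa11: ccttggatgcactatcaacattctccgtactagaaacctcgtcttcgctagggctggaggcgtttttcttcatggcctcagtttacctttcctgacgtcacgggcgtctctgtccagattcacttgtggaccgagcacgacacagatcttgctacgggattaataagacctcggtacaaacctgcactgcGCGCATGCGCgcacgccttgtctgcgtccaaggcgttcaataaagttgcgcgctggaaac
Sdha: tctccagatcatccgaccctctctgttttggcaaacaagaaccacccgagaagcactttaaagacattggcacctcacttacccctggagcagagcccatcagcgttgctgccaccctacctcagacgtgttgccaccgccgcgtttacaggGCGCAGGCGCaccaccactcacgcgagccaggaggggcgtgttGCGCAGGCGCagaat

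Within the genotypes, the Wfdc2 +/+ and Wfdc2 GFP/GFP lungs each gave the change across birth from 2 libraries against 2. Where a library is left out below, no share of all genes stands beside the count, which describes only how stable the calls were. In Wfdc2 +/+, 69 of 88 genes lay above 0 (42.9% of all genes did), the median was 0.42 against -0.15 for all genes, and limma called 0 of them, against 0.0256% of all genes higher and 0.032% lower. The length correction centres each library near 0 over all genes. After it the median was 0.059 and 49 of 88 lay above 0, so little of this rise remained. The Wfdc2 +/+ pairs did not overlap in 60 genes that were higher and 9 that were lower, against 27.4% and 28.2% of all genes. At an unadjusted p under 0.05, 13 were higher and 0 lower, against 6.90% and 4.93% of all genes. Without the second Wfdc2 +/+ library of P1.5, limma called 6 higher and 2 lower. In Wfdc2 GFP/GFP, 77 lay above 0 (36.1% of all genes did), the median was 1.04 against -0.46, and 13 rose and 0 fell, against 1.61% and 2.94% of all genes. At an unadjusted p under 0.05, 56 were higher and 0 lower, against 9.61% and 26.0%. The pairs did not overlap in 70 genes that were higher and 7 that were lower, against 18.7% and 48.5% of all genes. Among them, Uqcrq had 2.51 ± 0.50 (limma adjusted p = 0.044), Cox8b 3.32 ± 0.69 (limma adjusted p = 0.046) and Ndufa2 2.36 ± 0.53 (limma adjusted p = 0.050). Ndufb8 and Ndufb10 were among these 13 and not among the 18 of the averaged change. The count of 13 went to 0 without either Wfdc2 +/+ library of E18.5, without the first Wfdc2 GFP/GFP library of E18.5 or without either one of P1.5, to 47 without the second Wfdc2 GFP/GFP library of E18.5 and to 43 without either Wfdc2 +/+ library of P1.5.

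Between genotypes at P1.5, the comparison the study was made for, no gene of the set passed in limma, and over all genes 0 were higher (0.0%) and 2 lower (0.0128%), one of which was Wfdc2. Of the 88 genes, 81 were higher in Wfdc2 GFP/GFP by their estimate, against 38.8% of all genes, with a median of 0.57 against -0.20 for all genes, and 54 had both Wfdc2 GFP/GFP libraries above both Wfdc2 +/+ libraries and 2 below, against 12.6% and 26.9% of all genes. At an unadjusted p under 0.05, 16 were higher and 0 lower, against 3.61% and 7.33%. The 5 lowest unadjusted p belonged to Atp5f1, Ndufb10, Cox5a, Ndufv2 and Cox5b. Atp5f1, subunit b of the stator stalk of complex V, had 143 and 166 in Wfdc2 +/+, with 290 and 328 in Wfdc2 GFP/GFP. The pairs lay clear of each other, and the difference was 1.003 ± 0.27 (limma adjusted p = 0.31). Cox5a, a subunit on the matrix side of complex IV, had 165 and 144 against 328 and 435, a difference of 1.29 ± 0.40 (limma adjusted p = 0.34). Ndufb10 had 1.28 ± 0.38, Cox5b 1.11 ± 0.36 and Ndufv2 0.84 ± 0.27, none of which passed. Leaving out 1 library gave no call and medians from 0.41 to 0.77.

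At E18.5 no gene of the set passed between the genotypes in limma, and over all genes 0.0% were higher and 0.0192% lower. For the 88 genes there were 0 higher and 0 lower also at an unadjusted p under 0.05, against 3.78% and 0.595% of all genes. The median was -0.01 against 0.09 for all genes, 43 estimates lay above 0 (59.2% of all genes did) and 45 below. Both Wfdc2 GFP/GFP libraries lay above both Wfdc2 +/+ libraries in 12 genes and below them in 4, against 26.5% and 9.46% of all genes. The 5 lowest unadjusted p were those of Cox6b2 (0.86 ± 0.47), Atp5s (0.67 ± 0.48), Atp5sl (0.40 ± 0.29), Atp5g2 (0.42 ± 0.31) and Uqcrc1 (-0.48 ± 0.39).

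The difference between the genotypes in their change across birth was tested as the interaction of genotype and stage. It passed for none of the 88 genes and for none of all genes (0.0%) in limma. At an unadjusted p under 0.05, 10 of the 88 were higher and 0 lower, against 2.18% and 8.06% of all genes. The median was 0.53 against -0.33, and 78 lay above 0, against 35.6% of all genes. The lowest unadjusted p were those of Atp5f1 (1.19 ± 0.39), Cox5a (1.68 ± 0.57), Atp5l (1.32 ± 0.46), Ndufs6 (1.497 ± 0.57) and Ndufv2 (0.98 ± 0.37). These comparisons share their libraries, so the larger change in Wfdc2 GFP/GFP, the difference at P1.5 and the interaction are not separate observations.

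**Figure D4:**
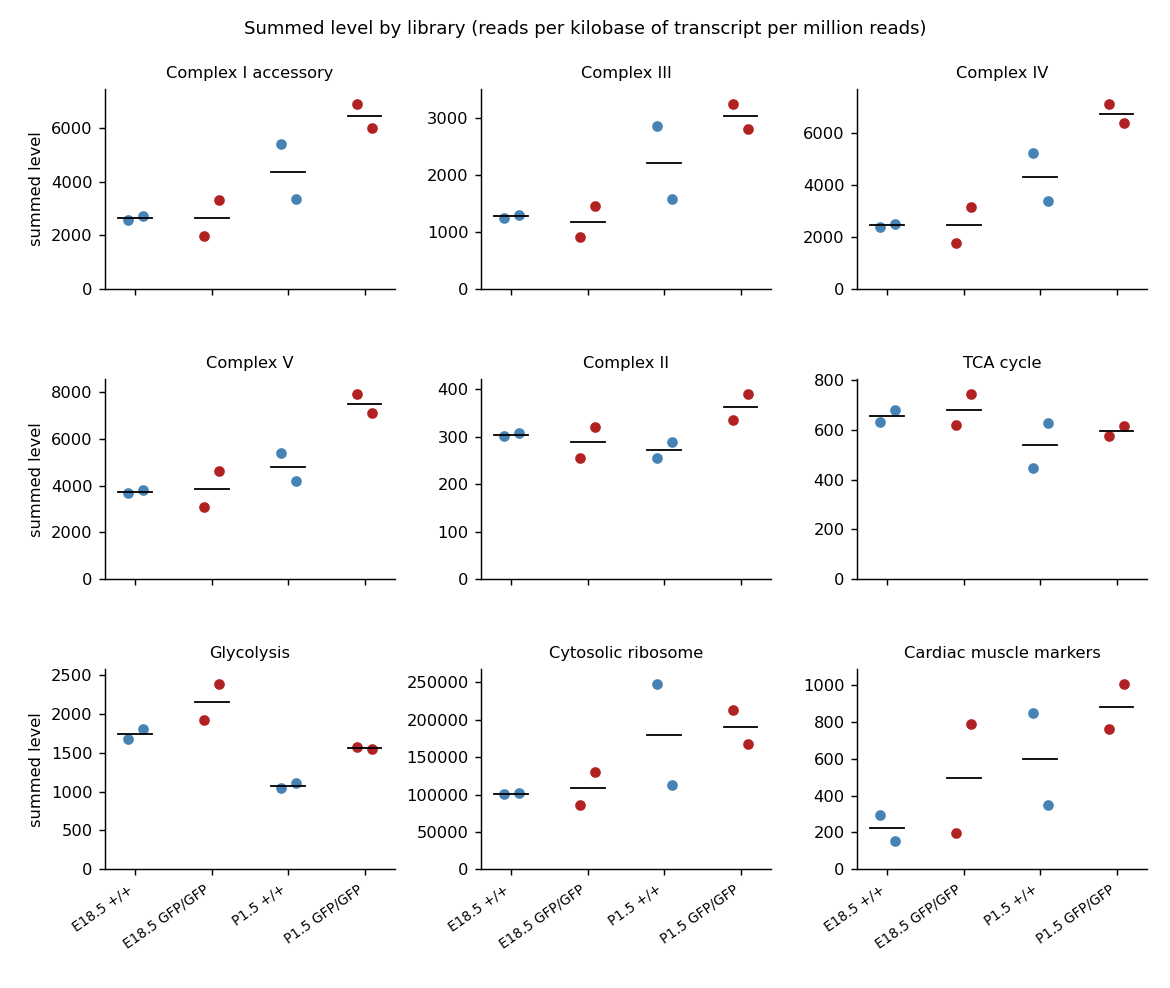
Summed level (vertical axis, transcript RPKM, starting at 0) of 5 sets of respiratory genes and of the citric acid cycle, glycolysis, cytosolic ribosome and heart muscle lists in the 4 groups. Each point is 1 library and the line is the mean of 2. Complexes I, III, IV and V have their highest means in Wfdc2 GFP/GFP at P1.5, complex II and the citric acid cycle overlap between stages, and every P1.5 library is below every E18.5 library in glycolysis.

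Pathways that feed the respiratory chain were followed with the same test. None of the 13 citric acid cycle genes passed across birth, and their median was -0.44, the largest change being that of Suclg2 at -0.93. Of 9 genes of pyruvate dehydrogenase and its regulators, Pdk1, the kinase that shuts the enzyme off, fell by 2.35 (limma adjusted p = 0.015). Of 15 glycolysis genes, 0 rose, Hk2 fell by 1.37 (limma adjusted p = 0.044) and Pgam1 fell by 1.29 (limma adjusted p = 0.035), and the median was -0.78. All E18.5 libraries, with a summed glycolysis level of 1672 to 2378, lay above the P1.5 libraries with 1041 to 1568. Of 16 fatty acid oxidation genes, Etfb, the beta subunit of the flavoprotein that passes electrons to the chain, rose by 1.45 (limma adjusted p = 0.046), and the median was 0.08. The medians of citric acid cycle (0.03) and fatty acid oxidation (0.55) genes with equal library medians show how far they depend on the scaling, while glycolysis stayed below 0 under each one.

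Of 13 targets of the hypoxia-inducible factor, Pdk1, Egln3, Slc2a1, Ankrd37 and Kdm3a fell in limma and none rose, with a median of -0.92. Egln3, the oxygen-sensing hydroxylase that marks the factor for decay, had the largest change at -2.45. Pdk1 stands in this list and in that of pyruvate dehydrogenase. Cytochrome c and its partner in complex III had 0.47 ± 0.25 for Cycs and 0.44 ± 0.29 for Cyc1, and neither passed.

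Among the regulators of mitochondrial gene expression no gene rose. Of 14 listed, 12 were tested, Yy1 fell by 1.22 (limma adjusted p = 0.041), and the median was -0.42. Gabpa, the DNA-binding part of GABP, had the largest change, -1.53 ± 0.43, with levels of 33.0, 28.0, 54.5 and 20.6 at E18.5 and 7.09, 20.4, 8.84 and 11.7 at P1.5, and did not pass (limma adjusted p = 0.061). Its partner Gabpb1 had -0.92 ± 0.35, Nrf1 -0.49 ± 0.31 and Tfb1m -1.49 ± 0.39. The coactivators had 0.24 ± 0.45 for Ppargc1a and -0.22 ± 0.33 for Pprc1, and the receptors 0.18 ± 0.27 for Esrra and -0.07 ± 0.45 for Ppara. Tfam, which packs mitochondrial DNA, had -0.36 ± 0.29, and Tfb2m and the mitochondrial polymerase Polrmt had -0.54 ± 0.30 and -0.24 ± 0.25. Ppargc1b and Esrrg lay under the limit for testing.

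Assembly factors with other names were also counted. Of 6 for complex I, none passed and the median was -0.62, with the largest change in Tmem186 (-1.19). Of 17 for complexes II to V, Cox15, which makes the heme A of complex IV, fell by 2.23 (limma adjusted p = 0.044), and the median was -0.31. The proteins of the mitochondrial ribosome had a median of 0.32 over 76 genes, and Mrpl12, Mrpl20, Mrpl33 and Mrpl41 rose. The proteins of the cytosolic ribosome had a median of 0.75 over 80 genes, 75 of them above 0, and Rpl3l and Rpl38 rose, which is 2.5% of the list against 2.58% of all genes. Their median was close to the 0.73 of the respiratory genes as deposited, and was 0.08 after quantile normalization. The respiratory genes moved under that normalization as well, and kept 12 of their 18 calls.

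Short transcripts had the larger changes, in these genes and in all genes. Across the 88 genes, the correlation of the change with the log2 length of the annotated transcript was -0.64, and it was -0.42 across 13944 genes with a mean of at least 10 reads and a known length. Genes are not independent replicates, and these points share the same 8 libraries. Under 600 bases, 27 of 27 respiratory genes lay above 0 with a median of 1.14, against 71.4% and a median of 0.73 for 367 genes of that length. From 600 to 1000 bases it was 28 of 30 with 0.91, against 749 of 1070 and 0.51 for all genes. From 1000 to 1500 bases it was 12 of 16 with 0.28, against 962 of 1602 and 0.21. Above that it was 10 of 15 with 0.26, against 24.1% and -0.53 for 10904 genes, and Ndufs1 and Sdha are among the longest of the set. This last range has no upper limit, so the respiratory genes and all genes were not matched for length within it. All 18 calls lay under 1000 bases, 11 of 27 genes (40.7%) under 600 bases against 14.2% of all genes of that length, and 7 of 30 (23.3%) from 600 to 1000 against 8.69%. After each library was centred on the trend with length, a step added after the data had been seen, the median of the 88 genes was 0.36 and 10 passed. Of these, Uqcr10, Uqcrq, Cox6c, Cox4i2, Cox8b, Ndufa11, Ndufa2 and Ndufa5 were among the 18, and Ndufaf4 and Cox4nb were not. Calls over all genes also rose in number under this step, as given above. The part of RNA quality, library preparation or sequencing instrument in the relation with length was not tested.

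**Figure D5:**
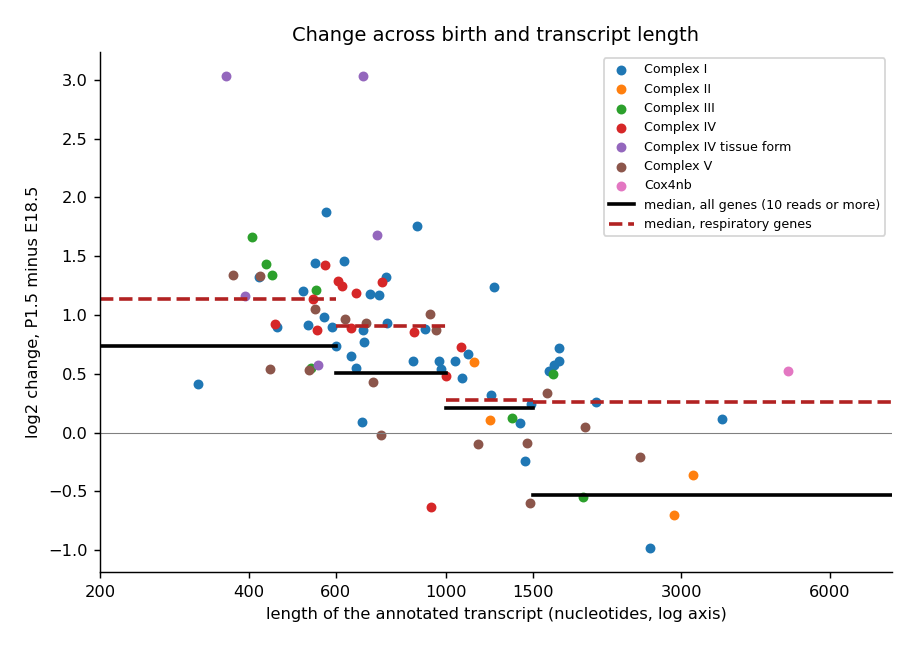
Log2 change across birth (vertical axis, P1.5 minus E18.5) of each tested gene against the length of its annotated transcript (horizontal log axis, bases), coloured by complex. Atp5s and Atp5sl carry the colour of complex V by their names. Black lines are the medians of all genes with a mean of at least 10 reads in 4 ranges of length and dashed red lines those of the respiratory genes, which lie above the black lines in each range. The last range has no upper limit, so lengths are not matched within it.

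Transcripts of other genes that share sequence with these genes could take or give reads. For 41 of the 88 genes no 36-base stretch of the transcript occurs in an annotated transcript of another gene. Of these 41, 33 lay above 0, 5 rose and the median was 0.60. For 61 genes under 10% of the stretches are shared, with 12 that rose, and for 27 genes at 10% or more, with 6 that rose. Shared stretches made up 54.3% of Cox7c, 21.5% of Cox6c and 15.9% of Ndufa11, and how far this touched their values was not tested. The share was 100% for Atp5g2 and 57.3% for Atp5g1, 2 of the subunit c genes, and 30.5% for Cox5b, 27.9% for Atp5f1, 23.3% for Ndufs6 and 12.3% for Cox5a, which had low unadjusted p in the genotype comparisons. There were no shared stretches in Cox8b, Cox4i2, Uqcrq and Ndufa2. No other row of the table overlaps 68 of the genes, and 16 of the 18 that rose are among them, the exceptions being Ndufa2 and Cox6c, which lies across from Vps13b. Rows on the other strand also overlap Cox6a2 (Itgad), Atp5f1 (Wdr77), Ndufs1 (Gm11602) and Uqcrc2 (Pdzd9).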

How the data were processed

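Lung RNA of 8 mice was sequenced, 2 per group, and the authors deposited 1 table of log2 RPKM per gene and library. Sequencing used either of 2 Illumina instruments, and the paper's methods do not say which library ran on which. The part of the instrument in any difference between groups was not tested. Per the labels and methods, base calls of CASAVA 1.8 were cut to 36 bases, trimmed with Trim Galore 0.4.0, aligned to mm10 with TopHat2 2.1.1 and counted in SeqMonk. The strand setting of the counting is not given in the sources used here. The deposited log2 values correspond to whole reads divided by the full genomic span of the gene: 99.86% to 99.97% of values above the lowest were whole within 0.02 reads, and a gene without reads stands at 0.9 reads. Levels were recomputed per kilobase of a GENCODE M21 transcript, since the deposited values are not comparable between genes with introns of different size. Reads in introns or of overlapping genes, where counted, raise the levels of genes with a long span.

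Tests used limma 3.58.1 in R 4.3.3 with a trend in the prior, 1 mean per group over all 8 libraries (4 residual degrees of freedom), on genes whose mean reached 0.05 RPKM, two-sided, with Benjamini-Hochberg adjustment over 15627 genes. Of these, 529 had no reads in any library, and 0 of them passed. Counting error is covered only by the spread between animals. The fit was checked on simulated data. Scalings, pseudocounts, filters, voom on recovered reads, a replicate block and each library left out served as alternatives. Same-numbered replicates correlated in their deviations by 0.23 at E18.5, 0.21 at P1.5 and -0.29 to 0.08 across stages, so the numbers were not taken to pair the samples.

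The genes and lists were chosen with earlier results of these data known. Named are Wfdc2, the isoform pairs, the Sdh genes, up to 10 genes a direction with an adjusted p under 0.05 and no overlap between stages (5 by unadjusted p where fewer than 3 passed), 5 per genotype contrast, the highest and lowest level per role, the regulators and the largest change of each list. Any other gene was named after its values were seen. Promoter windows came from RefSeq (GRCm38.p6). 1 pseudogene row was left out. The values of 1 further gene are not reported here, and its row is left out of the heat map and the plot of changes across birth.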

Additional observations from a re-analysis of the deposited data

Results flagged for a closer look

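In a few genes the libraries of one genotype all moved one way across birth and those of the other the opposite way. In limma none of these interactions passed after adjustment. Atp5g3, for subunit c of the ATP synthase, had both P1.5 libraries below both E18.5 libraries in Wfdc2 +/+ and above them in Wfdc2 GFP/GFP, with a difference between the changes of 1.39 on the log2 scale. The same held for Sdhd, with 0.74, and for Atp5f1, with 1.19. Atp5sl went the other way, with -0.54. Seen between genotypes, Sdhd, Atp5f1, Ndufv2 (0.98) and Atp5l (1.32) were lower in both Wfdc2 GFP/GFP libraries at E18.5 and higher in both at P1.5, and Atp5sl and Ndufaf2 (-0.58) the reverse. Over all genes tested, 1.29% had the pattern of Atp5g3 across birth and 4.36% that of Atp5sl, and 1.56% and 8.36% had the corresponding patterns between genotypes.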

How the results depend on the processing

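For the change across birth averaged over genotypes, the 18 genes called higher became 10 with log2(RPKM + 1), 2 without a filter, 34 with a mean of at least 0.5 RPKM, 29 with median centring, 5 without a trend in the prior, 10 with transcript length centring and 32 with a mean of at least 10 reads. The last 2 were chosen after the data were seen. Quantile normalization called 1 lower, Sdha. Median changes were 1.20 with median centring and 0.36 with length centring. With a replicate block 2 of the 18 passed, and 0 of the 13 in Wfdc2 GFP/GFP. Those 13 became 0 with log2(RPKM + 1), without a filter and with voom on recovered reads, 27 with 0.5 RPKM, 25 with median centring (median 1.72), 7 after quantile normalization, 1 without a trend, 30 in a fit of the 4 libraries alone, 21 with length centring (median 0.67) and 28 with at least 10 reads. Length centring brought the Wfdc2 +/+ median to 0.059, and median centring the interaction median to 0.94. Calls over all genes also moved with the scaling, as given above. No share of all genes stands beside the counts of this paragraph, so they describe only how stable the calls were. Left out in turn, the libraries gave 0 to 52 called higher, 0 to 4 lower and medians of 0.58 to 0.92 for the average, 0 to 6, 0 to 2 and 0.28 to 0.63 in Wfdc2 +/+, and 0 to 47, 0 to 0 and 0.66 to 1.34 in Wfdc2 GFP/GFP. The genotype contrasts and the interaction kept 0 calls throughout, with medians of 0.41 to 0.77 at P1.5, -0.36 to 0.30 at E18.5 and 0.19 to 0.87. Signs turned for Sdhc (0.11) and Atp5sl (0.38) with median centring, for Atp5g3 (-0.17), Sdhd (-0.20), Atp5sl (0.094) and Uqcrfs1 (-0.18) after quantile normalization, and for Cox6b2 (-0.095), Atp5g2 (-0.23), Atp5g3 (-0.10), Sdhc (0.17), Sdhd (-0.091), Ndufaf2 (-0.47) and Atp5k in Wfdc2 +/+ (-0.092) with length centring. With single libraries left out, signs turned for Uqcrfs1 (-0.020 to 0.27), Atp5sl (-0.18 to 0.000628), Ndufaf4 (-0.15 to 0.39), Sdhd (-0.023 to 0.23), Uqcrc1 at E18.5 (-1.04 to 0.084) and the ratio of Cox7a1 to Cox7a2 (-0.25 to 0.17). The cause was not tested in any of these. The 8 libraries left 4 residual degrees of freedom, and every tested gene of the set had at least 14 reads in every library.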
